A study of Danio rerio with 6 samples.

Results

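Heat shock chaperone genes were measured in GFP-positive cells of zebrafish carrying the Tg(mpx:eGFP) reporter, as 10 genes picked by their symbols from the 59330 rows of the count tables. The 10 genes are the inducible cytosolic Hsp70 genes hsp70l, hsp70.1, hsp70.2 and hsp70.3, the constitutive Hsp70 gene hspa8, the cytosolic Hsp90 alpha genes hsp90aa1.1 and hsp90aa1.2, the small heat shock protein gene hspb1 and the Hsp40 co-chaperone genes dnajb1a and dnajb1b. Each symbol matched 1 row, and all 10 had counts in all 6 libraries. The study compared 3 libraries labelled znf711 MO with 3 labelled control, and its aim was to learn how loss of the zinc finger factor Znf711 acts on neutrophil development. The morpholino group is labelled as a znf711 knockdown and the control group as WT. A morpholino is an antisense oligonucleotide that blocks translation or splicing of its target transcript. Both groups carried the reporter, whose green fluorescent protein is driven by the mpx (myeloperoxidase) promoter, and both were taken at day 2 and labelled as neutrophils. The series' design text names a znf711 mutant line instead of a morpholino, and the grouping here follows the sample labels. The sources used here do not say what was injected into controls, if anything.

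Cytosolic chaperones of these families act in sequence on unfolded protein. Small heat shock proteins hold it, Hsp40 proteins deliver it to Hsp70 and stimulate the Hsp70 ATPase, and some clients pass on to Hsp90. Under heat or other proteotoxic stress the heat shock factor Hsf1 trimerises, binds heat shock elements and raises transcription of the inducible genes by a large factor, while hspa8 is transcribed in unstressed cells. In zebrafish the hsp70l promoter is widely used to switch on transgenes by heat, and hsp90aa1.1 is known for its role in myosin folding in striated muscle.

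Total counts ranged from 1629804 to 12093109 in the morpholino libraries and from 7181804 to 9311439 in the control libraries. The targeted gene znf711 had 1, 120 and 182 counts in morpholino replicates 1 to 3 and 348, 134 and 60 counts in control replicates 1 to 3, with overlapping groups, and a morpholino need not lower the transcript it binds. Morpholino replicate 1 stood apart as the shallowest, with 8041 Ensembl genes counted, where the other 5 libraries had 13434 to 16074. Reads of mitochondrial genes made up 5.26% to 10.1% of the morpholino libraries and 4.37% to 20.5% of the control libraries, the highest being control replicate 3. The labelled cell type was checked with 9 neutrophil genes, each with counts in at least 1 library, and their summed level was 3039, 11878 and 23020 CPM (counts scaled to a common library size, here by the library total) in morpholino replicates 1 to 3 and 2049.6, 11877 and 12852 CPM in control replicates 1 to 3. The listed row of the lysozyme gene lyz, named after its values were seen, was nearly empty. It had 0, 8 and 2 counts in the morpholino libraries and 1, 1 and 4 counts in the control libraries. Unnamed gene models held 8.69% to 10.4% of all counts per library. Such models were not looked for at the positions of lyz or of other list genes, so low or 0 counts there are those of the listed rows alone. The most abundant of the 9 genes, npsn, a granulocyte metalloprotease gene, was lowest in replicate 1 of either group. In bulk libraries, fewer cells of a type and less RNA per cell cannot be told apart. P-values measure the spread between these libraries, which the labels call biological replicates.

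The 10 genes together held 1.95%, 4.15% and 1.51% of all counts in morpholino replicates 1 to 3, against 4.38%, 8.52% and 1.72% in control replicates 1 to 3. The mean share was 2.54% ± 1.42 in the morpholino group and 4.87% ± 3.43 in the control group (SD, n = 3 each), a difference of -2.34 percentage points. Control replicate 2 was the highest library, followed by control replicate 1 and morpholino replicate 2, and the groups overlapped. Without control replicate 2 the difference was -0.51 percentage points. Counting error was small beside this spread: the widest exact binomial interval, at a confidence level of 95%, ran from 1.93% to 1.97% in morpholino replicate 1. Such intervals cover counting error only, and this sum over chosen genes was not tested. Averaged over the 6 libraries, hsp70l ranked 6, hsp90aa1.2 ranked 7 and hsp70.3 ranked 10 among all rows by share of the total.

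**Figure D1:**
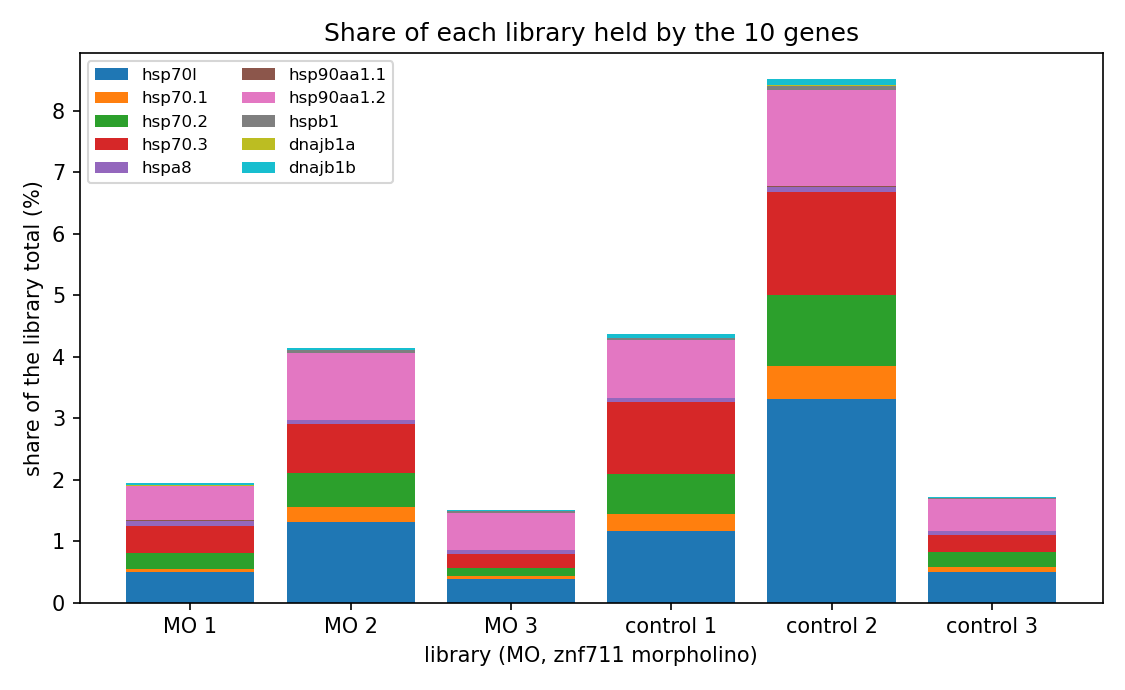
Share of each library's total count, in percent, held by each of the 10 genes, stacked, for morpholino (MO) replicates 1 to 3 and control replicates 1 to 3. The stack reaches 8.52% in control replicate 2 and is lowest, at 1.51%, in morpholino replicate 3.

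None of the 10 genes passed the threshold between the groups (edgeR quasi-likelihood test, adjusted p = 0.9999 for each), and neither did any of the 16637 rows tested (0%). At an unadjusted p under 0.05 there were 0 members, beside 174 of all rows, or 1.05%, and the smallest unadjusted p of a member was 0.101. DESeq2 called 0 members and 12 rows (0.0844% of those with an adjusted p), or 140 rows (0.698%) when run on the whole table, and limma-voom called 0 members and 0 rows. All 10 genes passed the filter on low counts. The log2 fold change of the morpholino over the control group was negative in 9 members and positive in hsp90aa1.1 (negative in 10 with limma-voom and in 8 with library totals alone). The median of the members was -0.76, while 55.7% of all rows tested were negative, with a median of -0.12. Without control replicate 2, 7 members were negative and the median was -0.16. The groups overlapped in all 10 members, so 0 of them separated, beside 7.44% of all rows tested that did (5.35% with the morpholino libraries lower and 2.09% with them higher).

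**Figure D2:**
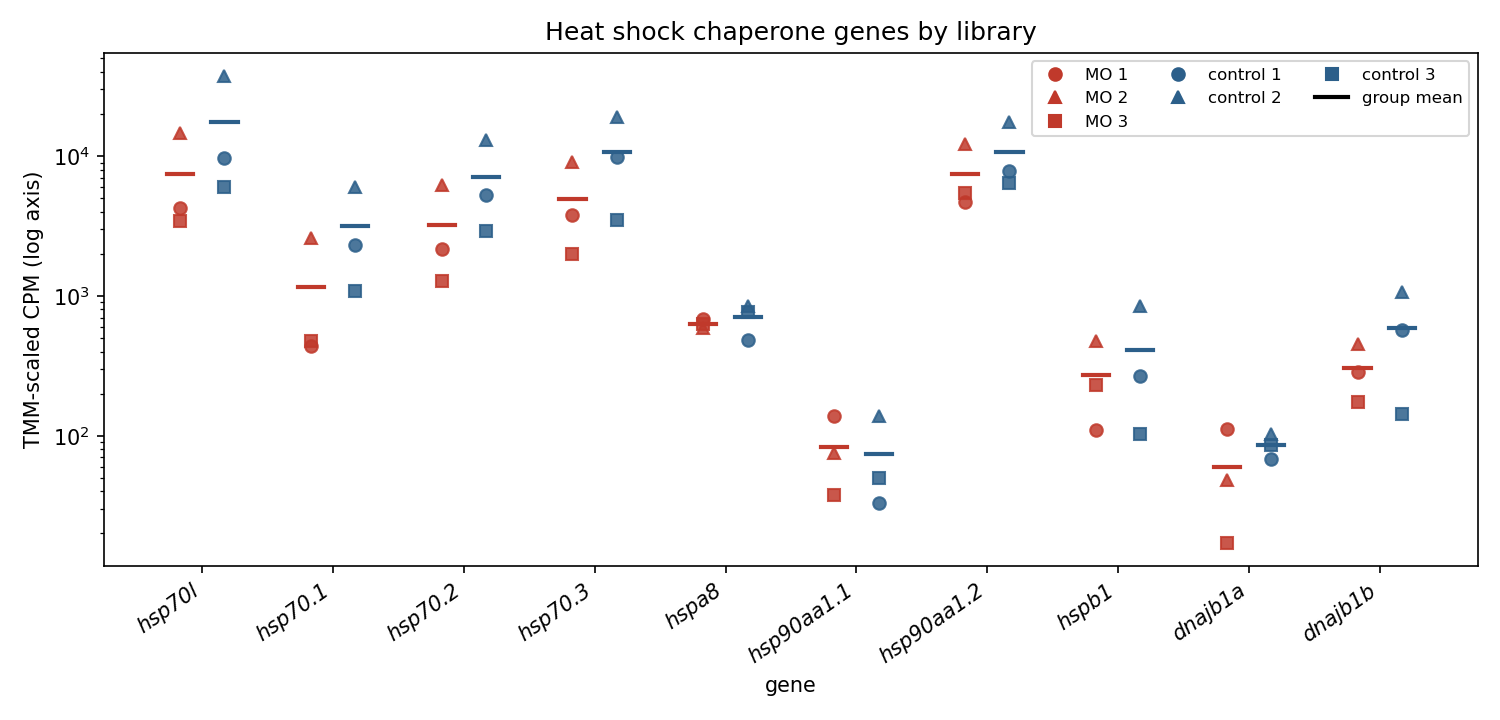
Level of each gene in TMM-scaled CPM (log axis), with morpholino (MO) libraries in red to the left of control libraries in blue, the replicate number shown by the symbol and bars at the group means. For 9 of the 10 genes the highest point is control replicate 2, and the groups overlap in every gene.

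The inducible gene hsp70l (ENSDARG00000055723, GRCz11 chromosome 8, 4798158 to 4800911, plus strand) was at 4270.1, 14652 and 3429 CPM in morpholino replicates 1 to 3, against 9743, 37243 and 6006 CPM in control replicates 1 to 3, on the TMM scale used from here on for single genes. Its raw counts were 8099, 159128 and 35967 in the morpholino libraries and 83929, 308336 and 37467 in the control libraries. Morpholino replicates 1 and 3 lay below every control, while morpholino replicate 2 lay above control replicates 1 and 3. The group means were 7451 ± 6251 CPM in the morpholino group and 17664 ± 17058 CPM in controls (SD, n = 3 each), and the log2 fold change was -1.25 ± 0.74 (SE). Without control replicate 2 it was -0.08, and without morpholino replicate 2 it was -2.30. Among all Ensembl genes, hsp70l ranked 13, 5 and 16 by count in the morpholino libraries and 4, 1 and 18 in the control libraries, which makes it the most counted gene of control replicate 2.

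The tandem genes hsp70.1, hsp70.2 and hsp70.3 are neighbours on chromosome 3 and encode further inducible Hsp70 proteins. The first, hsp70.1 (ENSDARG00000029688, 26112780 to 26115559, minus strand), was at 441, 2585 and 474 CPM in morpholino replicates 1 to 3, against 2329, 6022 and 1091 CPM in control replicates 1 to 3. Its neighbour hsp70.2 (ENSDARG00000092362, 26119603 to 26122353, minus strand) was at 2167, 6197 and 1286 CPM in the morpholino libraries and 5309, 12980.4 and 2898 CPM in the control libraries. The third, hsp70.3 (ENSDARG00000021924, 26123736 to 26127091, plus strand), was at 3819, 9008 and 1984 CPM in the morpholino libraries and 9867, 18933 and 3488 CPM in the control libraries. In each of the 3 genes replicate 2 was the highest library of its group, and morpholino replicate 2 lay inside the control range. For hsp70.3 morpholino replicate 1, at 3819 CPM, also lay inside that range, above control replicate 3 at 3488 CPM. The log2 fold changes were -1.43 ± 0.81 for hsp70.1, -1.13 ± 0.64 for hsp70.2 and -1.12 ± 0.64 for hsp70.3 (SE), with unadjusted p of 0.110, 0.101 and 0.103 in edgeR. Without control replicate 2 they were -0.53, -0.36 and -0.45, and without morpholino replicate 2 they were -2.87, -2.15 and -2.01.

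The 4 inducible Hsp70 genes varied less between libraries in their proportions than in their sum. Their joint share of all counts was 1.24%, 2.91% and 0.788% in morpholino replicates 1 to 3 and 3.27%, 6.68% and 1.102% in control replicates 1 to 3. Of the counts of the 4 genes, hsp70l held 39.9%, 45.2% and 47.8% in the morpholino libraries and 35.8%, 49.5% and 44.5% in the control libraries. The share of hsp70.2 was 17.9% to 20.3% in the morpholino libraries and 17.3% to 21.5% in the control libraries. That of hsp70.3 was 35.7%, 27.8% and 27.7% in the morpholino libraries and 36.2%, 25.2% and 25.9% in the control libraries. Within either group hsp70l had its lowest share, and hsp70.3 its highest, in replicate 1. The least even was hsp70.1, with 4.12% in morpholino replicate 1, where it had 836 counts, against 6.61% to 8.55% in the other libraries. These genes are close copies of each other, and how the authors treated reads that fit several copies is not stated in these sources, so the split between copies is uncertain. Of the 4, hsp70.1, hsp70.2 and hsp70.3 also lie inside the listed span of atp2a1, a muscle calcium pump gene, which had 2 to 195 counts per library.

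The constitutive gene hspa8 (ENSDARG00000068992, chromosome 10, 29849497 to 29858018, plus strand) varied least. It was at 683, 591 and 627 CPM in morpholino replicates 1 to 3, against 484, 851 and 774 CPM in control replicates 1 to 3, and its highest library was 1.76 times the lowest. The same ratio was 10.9 for hsp70l, 13.7 for hsp70.1, 10.1 for hsp70.2 and 9.54 for hsp70.3, beside a median of 2.85 over the 127 rows with a mean of at least 1000 CPM. The log2 fold change of hspa8 was -0.15 ± 0.42 (SE). An unnamed gene model lay on an alternate scaffold of chromosome 10 at 29849537 to 29853670, inside the positions of hspa8, and had 772, 17679 and 6662 counts in morpholino replicates 1 to 3 and 6959, 17154 and 4600 counts in control replicates 1 to 3. The counts listed for hspa8 itself were 1295, 6414 and 6581 in the morpholino libraries and 4167, 7049 and 4827 in the control libraries. The ratio of the model to hspa8 was 0.596, 2.76 and 1.01 in the morpholino libraries and 1.67, 2.43 and 0.953 in the control libraries, highest in replicate 2 of either group. The model was not tied to hspa8 by any annotation in the files. With its counts added to those of hspa8, a check chosen after the data were examined, the highest levels were 2218 CPM in morpholino replicate 2 and 2923 CPM in control replicate 2, and the log2 fold change was -0.33. The narrow range given for hspa8 is that of its listed row alone.

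The Hsp90 alpha genes are neighbours on the minus strand of chromosome 20, and differed widely in level. The abundant one, hsp90aa1.2 (ENSDARG00000024746, 53967350 to 53981626), was at 4723.5, 12122 and 5479 CPM in morpholino replicates 1 to 3, against 7841, 17618.5 and 6409 CPM in control replicates 1 to 3. Replicate 2 was the highest library of its group here too, and the groups overlapped. Its log2 fold change was -0.51 ± 0.52 (SE), and 0.06 without control replicate 2. The muscle-associated hsp90aa1.1 (ENSDARG00000010478, 53982317 to 54012043) was at 138, 74.7 and 37.9 CPM in the morpholino libraries and 33.1, 139 and 50.01 CPM in the control libraries. Its highest morpholino library was replicate 1, and its log2 fold change was 0.16 ± 0.64 (SE), -0.40 without morpholino replicate 1 and 0.92 without control replicate 2. The count of hsp90aa1.2 was 34.3, 162 and 145 times that of hsp90aa1.1 in the morpholino libraries and 237, 126 and 128 times in the control libraries. Skeletal muscle markers, of which mylpfa was at 0 in every library, summed to 295, 190.2 and 139 CPM of the total in the morpholino libraries and 151, 120.2 and 132 CPM in the control libraries, and morpholino replicate 1 was the highest morpholino library for both. Among controls the order differed: hsp90aa1.1 was highest in replicate 2, at 139 CPM, where the muscle sum was lowest, at 120.2 CPM. The part of these markers in the level of hsp90aa1.1 was not tested. Of the 7 muscle genes tested, 3 had positive and 4 had negative log2 fold changes, with a median of -0.74.

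The small heat shock protein gene hspb1 (ENSDARG00000041065, chromosome 5, 3568016 to 3584815, minus strand) was at 109, 479.7 and 232 CPM in morpholino replicates 1 to 3, against 267, 853 and 103 CPM in control replicates 1 to 3. All 3 morpholino libraries lay inside the control range. The log2 fold change was -0.57 ± 0.73 (SE), and it turned to 0.58 without control replicate 2. Of the other small heat shock protein genes, 7 of 10 rows had 0 counts in every library, including both alpha B-crystallin genes cryaba and cryabb. The most abundant of the rest, hspb8, had 0, 99 and 49 counts in the morpholino libraries and 5, 113 and 10 counts in the control libraries.

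The Hsp40 genes did not share a pattern. The gene dnajb1b (ENSDARG00000041394, chromosome 1, 55745878 to 55750208, minus strand) was at 287, 456 and 175 CPM in morpholino replicates 1 to 3, against 568, 1069 and 142 CPM in control replicates 1 to 3, a log2 fold change of -0.95 ± 0.61 (SE). Without control replicate 2 the fold change was -0.24, without morpholino replicate 2 it was -1.47 and without control replicate 3 it was -1.46. Control replicate 2 was the highest library, as for hsp70l, but control replicate 3 was the lowest library, and all 3 morpholino libraries lay inside the control range. Its listed span overlaps that of adgre10 on the plus strand, which had 63 to 595 counts per library, and whether counting used strand is not stated in these sources. The paralogue dnajb1a (ENSDARG00000099383, chromosome 3, 49150822 to 49163683, minus strand) was at 112, 48.3 and 17.2 CPM in the morpholino libraries and 68.1, 104 and 85.3 CPM in the control libraries. It was highest in morpholino replicate 1, with 213 counts there, and its log2 fold change was -0.54 ± 0.64 (SE). It was -1.39 without morpholino replicate 1, -0.11 without morpholino replicate 3 and -1.34 with limma-voom. The count of dnajb1b was 2.55, 9.44 and 10.2 times that of dnajb1a in the morpholino libraries and 8.34, 10.3 and 1.67 times in the control libraries.

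**Figure D3:**
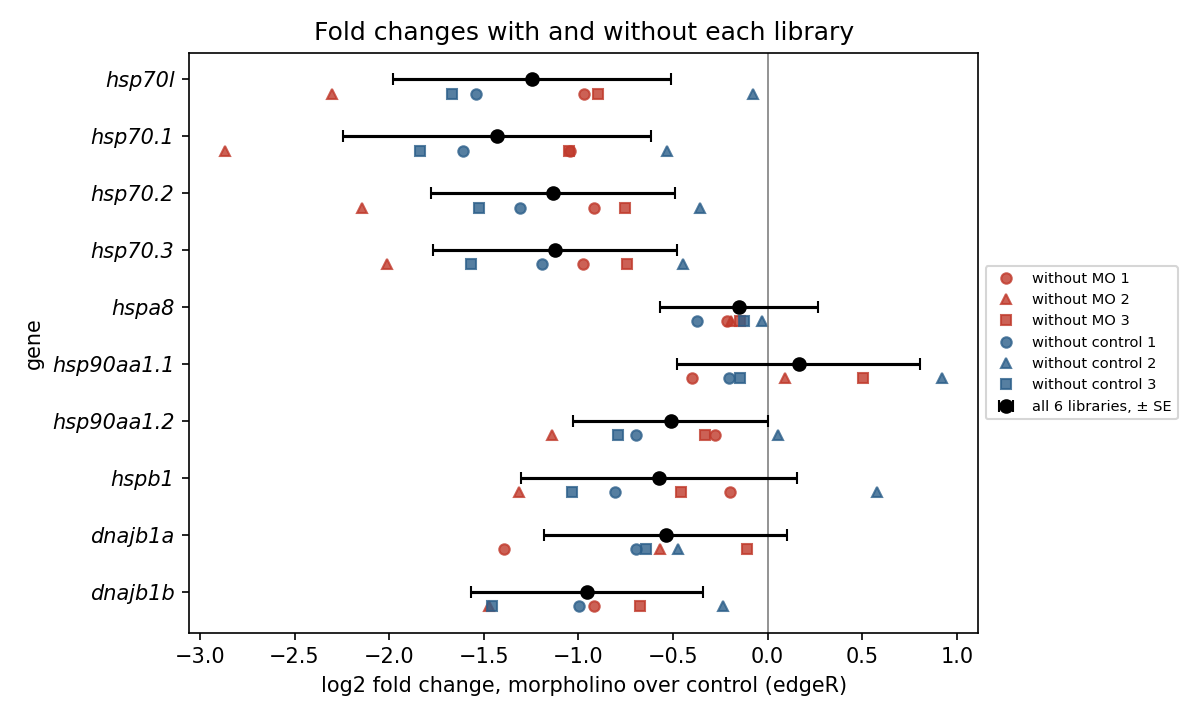
Log2 fold change of the morpholino over the control group for each gene, with all 6 libraries (black, ± SE) and with each library left out in turn (red for morpholino, blue for control, symbol by replicate number). For hsp70l the value is -1.25 with all libraries, -0.08 without control replicate 2 and -2.30 without morpholino replicate 2.

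Levels were compared between genes per length with the FPKM values that the authors deposited (fragment counts divided by gene length and library size). By mean FPKM over the 6 libraries, the order was hsp70l, hsp70.3, hsp90aa1.2, hsp70.2, hsp70.1, dnajb1b, hspb1, hspa8, dnajb1a and hsp90aa1.1. The top value was 5184 ± 4817 FPKM and the lowest 28.1 ± 18.3 FPKM (SD, n = 6). In 6 of 6 libraries hsp70l lay above hsp70.3, hsp90aa1.2 above hsp70.2, hsp70.2 above hsp70.1 and hsp70.1 above dnajb1b. The same held for hspa8 above dnajb1a. In control replicate 1 hsp70l and hsp70.3 were close, at 5077 and 5019 FPKM. The places of the inducible Hsp70 genes rest on the uncertain split of reads between copies. Other neighbours changed places: hsp70.3 lay above hsp90aa1.2 in 3 of 6 libraries, dnajb1b above hspb1 in 3, hspb1 above hspa8 in 4 and dnajb1a above hsp90aa1.1 in 5. The place of hspa8 in this order is that of its listed row alone, without the counts of the unnamed gene model at its positions. The length behind these FPKM values was 6877 bases for hspa8, against a listed length of 12550 and a span of 8522 bases. For hsp70l the FPKM length was 2302 bases, equal to the listed one. These lengths were also equal for hsp70.3 and dnajb1a. They differed for the remaining members, as for hsp70.1 (2297 against a listed 3500 bases) and hsp90aa1.1 (2804 against a listed 5201 bases).

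The members also differed in how the libraries ranked. Control replicate 2 was the highest of the 6 libraries in 9 of 10 members and the highest control in all 10, and morpholino replicate 2 was the highest morpholino library in 7. Over all rows tested, control replicate 2 was the highest library in 14.0% and the highest control in 31.4%, and morpholino replicate 2 was the highest of its group in 36.7%. These were the deepest libraries of their groups, with 12093109 counts in morpholino replicate 2 and 9311439 in control replicate 2, and the part of depth in the pattern was not tested. Likeness was measured as the root mean square difference of log2 levels, each centred on the gene's mean over the 6 libraries. From hsp70l it was 0.23 to hsp70.2, 0.36 to hsp70.3, 0.37 to hsp70.1, 0.54 to hsp90aa1.2, 0.56 to dnajb1b and 0.61 to hspb1. It was 1.11 to hsp90aa1.1, 1.12 to hspa8 and 1.14 to dnajb1a, beside a median of 1.45 over the 7768 named genes with a mean of at least 10 CPM. Among those genes the most like hsp70l were UBB, a polyubiquitin gene, at 0.41, ddx39b, an RNA helicase gene, at 0.44, ahsa1b, the gene of an activator of the Hsp90 ATPase, at 0.48, hnrnpd, an RNA-binding protein gene, at 0.49, and fntb, a farnesyltransferase subunit gene, at 0.55. UBB was at 796, 1712 and 716 CPM in morpholino replicates 1 to 3 and 1206, 3450.4 and 1019.7 CPM in control replicates 1 to 3. By contrast, ddx39b and hnrnpd were low in the shallow morpholino replicate 1, at 4.75 and 5.27 CPM, so their likeness rests on few counts there. The genes most like hspa8 were trpm7, cdk13, idi1, syap1 and pdia6, at 0.13 to 0.15. The uncertain split of reads between the inducible Hsp70 copies also limits the likeness found among them. The likeness values for hspa8 are those of its listed row alone.

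**Figure D4:**
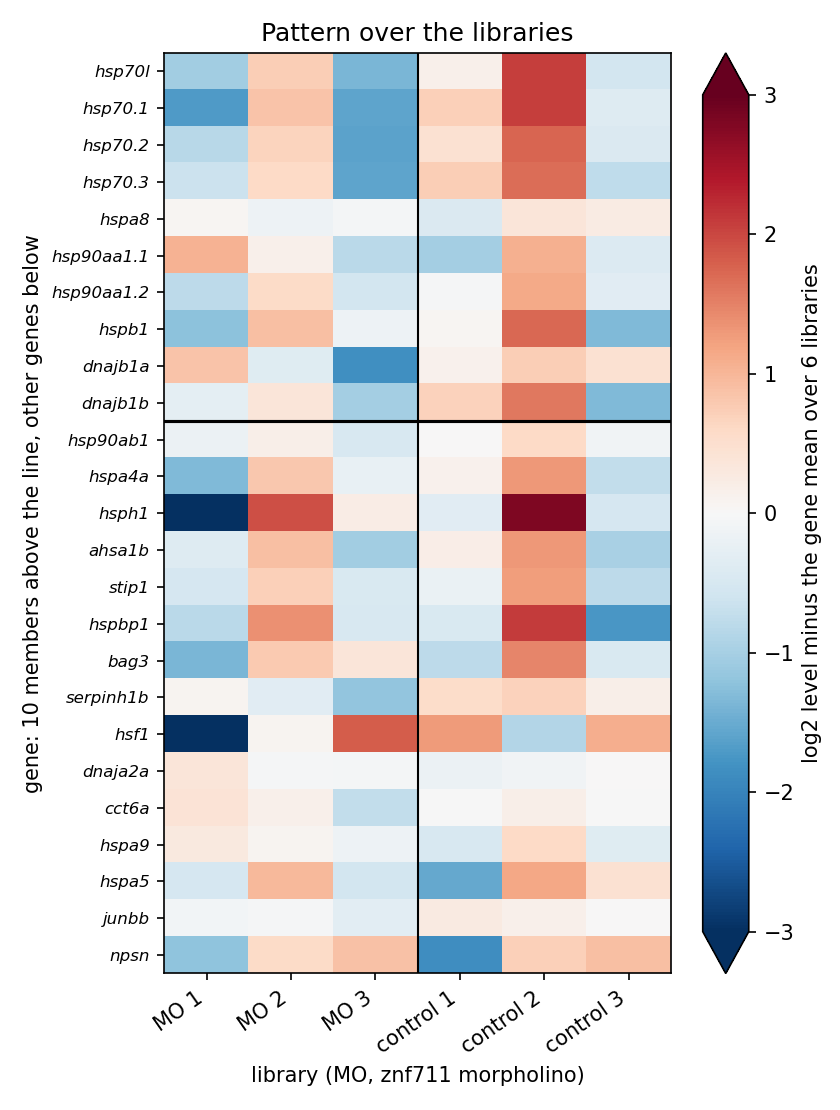
Log2 level of each gene minus its own mean over the 6 libraries, in morpholino (MO) replicates 1 to 3 and control replicates 1 to 3, with the 10 members above the line and other genes below it; the colour scale ends at 3 in either direction. The inducible Hsp70 genes are highest in control replicate 2, with hsp70l at 2.08, whereas hspa8 stays within -0.44 and 0.37.

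Other chaperone genes were described with 8 lists, chosen with earlier results of these data known. Of 99 rows, 81 were tested, 0 passed and 0 had an unadjusted p under 0.05 in edgeR. Fold changes were positive in 30 and negative in 51, and their median was -0.10 on the log2 scale, close to the -0.12 of all rows tested. Control replicate 2 was the highest library in 30 of the 81 (37.0%), beside 14.0% of all rows tested.

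Among Hsp110 genes, whose products reload Hsp70 with ATP, hspa4a was at 693, 3034 and 1491 CPM in morpholino replicates 1 to 3, against 1897, 4290.2 and 1044 CPM in control replicates 1 to 3. The stress-inducible hsph1 was at 12.1, 827 and 250.5 CPM in the morpholino libraries and 171, 1517 and 152 CPM in the control libraries, and had 23 counts in morpholino replicate 1. Both were highest in replicate 2 of either group. The list of other Hsp70 and Hsp110 genes had 3 positive and 5 negative fold changes among 8 tested.

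Among Hsp90 partners, the constitutive hsp90ab1 was at 7042, 9019 and 5654 CPM in the morpholino libraries, against 7972, 11957 and 7326 CPM in the control libraries, a log2 fold change of -0.33 ± 0.44 (SE). The list of Hsp90 and its co-chaperones had 6 positive and 9 negative among 15 tested, with a median of -0.08. The adaptor gene stip1, chosen after its values were seen, was at 529, 1229.6 and 549 CPM in the morpholino libraries and 656, 1800.3 and 434 CPM in the control libraries.

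The transcription factor gene hsf1 itself was scarce. It had 1, 93 and 306 counts in the morpholino libraries and 171, 35 and 109 counts in the control libraries, a log2 fold change of -0.11 ± 1.40 (SE). In control replicate 2, where the inducible genes were highest, it was at 4.23 CPM, the lowest of the controls. The part of hsf1 in the levels of the inducible genes was not tested. The Hsf1 target gene bag3, whose product exchanges the nucleotide of Hsp70, was at 20.6, 93.4 and 68.9 CPM in the morpholino libraries and 31.0, 149.9 and 39.3 CPM in the control libraries. The collagen chaperone gene serpinh1b was at 1939, 1463 and 805 CPM in the morpholino libraries, against 2716.5, 2994 and 2094 CPM in the control libraries. It was the only tested gene of the 8 lists whose groups did not overlap, 1 of 81 beside 7.44% of all rows tested, and its log2 fold change was -0.89 ± 0.45 (SE), with an edgeR adjusted p of 0.9999 and an unadjusted p of 0.0631. The list of Hsp70 regulators and heat shock factors had 5 positive and 10 negative among 15 tested, with a median of -0.18.

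Genes of the other chaperone lists had fold changes of both signs. Of 12 other J-domain genes tested, 7 were positive, and dnaja2a, the most abundant, was at 364 ± 63.1 CPM in the morpholino group and 317 ± 20.6 CPM in controls. Chaperonin genes had 2 positive and 9 negative among 11, with a median of -0.16, and the ring subunit gene cct6a was at 759 ± 277 CPM in the morpholino group and 779.6 ± 60.3 CPM in controls. Mitochondrial chaperones had 3 positive and 5 negative among 8, and the mitochondrial Hsp70 gene hspa9 was at 386 ± 59.4 CPM in the morpholino group and 364 ± 159 CPM in controls. ER chaperones had 4 positive and 7 negative among 11, with a median of -0.06. The ER Hsp70 gene hspa5 was at 3487, 9580.1 and 3349.9 CPM in the morpholino libraries and 1708, 10957 and 6732 CPM in the control libraries, again highest in replicate 2 of either group.

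**Figure D5:**
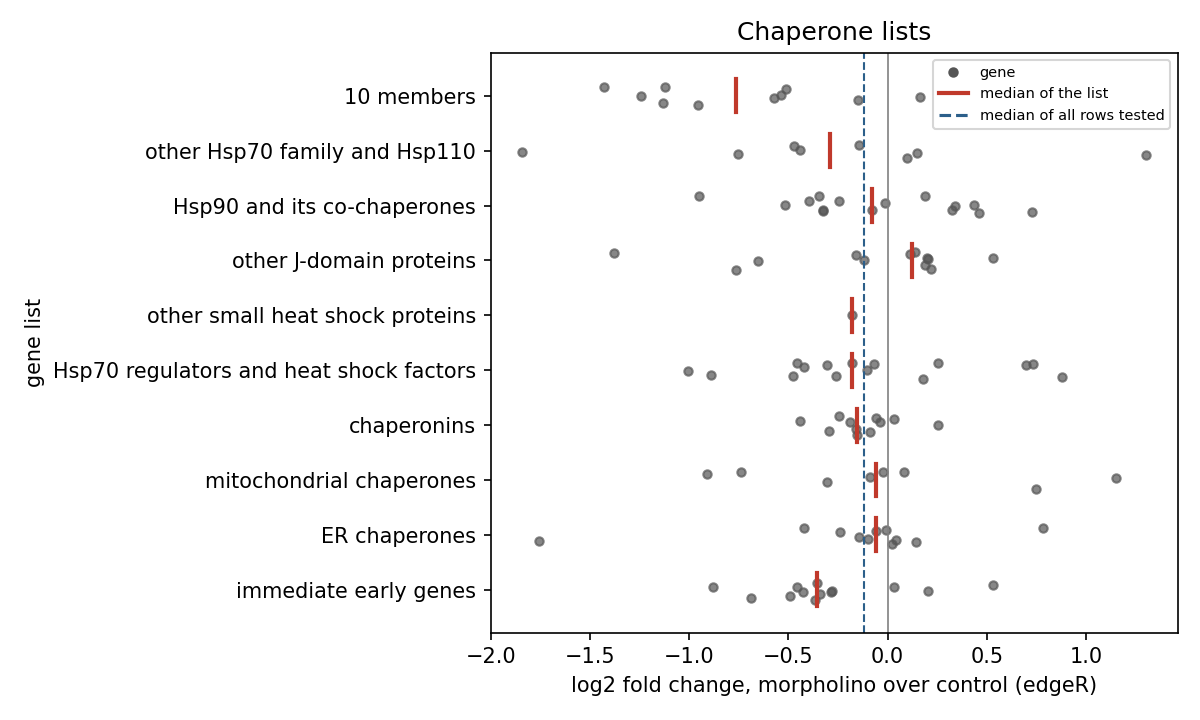
Log2 fold change of the morpholino over the control group for each tested gene (grey points), by list, with the median of each list (red bar) and of all rows tested (dashed line, -0.12). The 10 members have a median of -0.76 and the 8 other chaperone lists have medians from -0.29 to 0.12. The list of immediate early genes, which are not chaperone genes, is also shown and has a median of -0.36. No gene shown passed the threshold.

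Immediate early genes, which rise within minutes of many stimuli including tissue handling, ranked the libraries in another order by their sum. Their summed level was 8236, 9406 and 12025 CPM of the total in morpholino replicates 1 to 3, against 12855, 10712 and 8452 CPM in control replicates 1 to 3. The highest library by this sum was control replicate 1. Gene by gene, control replicate 2 was the highest library in 4 of 13 genes (30.8%), beside 14.0% of all rows tested. Control replicate 1 and morpholino replicate 3 were each the highest in 3. Within the controls, replicates 2 and 3 were each the highest in 5 of 13. The AP-1 gene junbb, the most abundant, was at 1957 ± 209 CPM in the morpholino group and 2379 ± 203 CPM in controls (SD, n = 3 each), a log2 fold change of -0.28 ± 0.41. Of the 13 genes tested, 3 were positive and 10 negative, with a median of -0.36 and 0 passing. In 2 of them, junbb and fosab (named after its values were seen), the morpholino libraries were all lower than the control libraries, beside 5.35% of all rows tested. The part of tissue handling in the chaperone levels was not tested.

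Markers of other cell types are given for the libraries as measured. Lens genes, from a tissue known to express hsp70l without heat in zebrafish, summed to 19.0, 0.165 and 0.838 CPM of the total in the morpholino libraries and 0.139, 5.05 and 0 CPM in the control libraries, with cryaa and cryba2a at 0 throughout and crygn2 the most abundant. Epidermal genes summed to 50.3, 58.05 and 0.524 CPM in the morpholino libraries and 11.1, 49.2 and 27.5 CPM in the control libraries, with krt5, cldni and epcam at 0 and cyt1 the most abundant. Erythroid genes summed to 19033, 10273.9 and 2239.7 CPM in the morpholino libraries and 15289, 4761 and 3146 CPM in the control libraries. Neural genes summed to 2373, 1543 and 3249 CPM in the morpholino libraries and 2744, 1259.5 and 1685 CPM in the control libraries, and macrophage genes to 314, 916 and 1097 CPM in the morpholino libraries and 253, 569.6 and 833 CPM in the control libraries. Control replicate 2 was the highest control for the lens and epidermal sums, and control replicate 1 or 3 was for the erythroid, neural, macrophage, neutrophil and muscle sums. All lens counts of control replicate 2 were the 47 counts of mipa, a gene named after its values were seen. All lens counts of morpholino replicate 1 were the 31 counts of crygn2. The most abundant genes of the erythroid, neural and macrophage lists were hbae3, marcksl1b and mfap4. On the TMM scale marcksl1b was at 1034, 1251 and 2652 CPM in the morpholino libraries and 1319, 1184 and 1755 CPM in the control libraries. The neural sums therefore rest largely on this gene. Of the genes of all marker lists, the muscle genes myhz2 and actc1b and the glial gene gfap had an unadjusted p under 0.05 in edgeR, at 0.00682, 0.0228 and 0.0466, beside 1.05% of all rows tested, and each had the higher mean in the morpholino group. Their TMM-scaled means were 24.2, 90.2 and 66.1 CPM in the morpholino group and 0.970, 21.8 and 23.9 CPM in controls. Those genes were 2 of the 7 muscle and 1 of the 6 neural genes tested. In the other marker lists it was 0 of 9 neutrophil, 6 erythroid, 5 macrophage and 1 epidermal genes tested. Over the whole lists, 3 of the 7 muscle genes and 5 of the 6 neural genes tested had positive log2 fold changes. The part of these cells in the chaperone levels was not tested.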

How the data were processed

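For each of the 6 samples the authors deposited counts of reads and FPKM values per gene, per the file headers. Per the submitters' processing notes, the build was GRCz11 and the tools included HISAT2 2.0.5, Trimmomatic, HTSeq, DESeq2 1.16.1 and edgeR, with no role or order. FPKM equalled the count over the listed length in 50.5% to 64.1% of counted rows (tolerance 0.001).

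Here, counts were tested with edgeR 4.0.16 (R 4.3.3): filterByExpr with a minimum count of 10, TMM scaling, a robust quasi-likelihood fit with the group as the only term, and Benjamini-Hochberg adjustment over all 16637 rows with a threshold of 0.05. Errors of log2 fold changes are approximate SE, the absolute fold change over the square root of F. Centred log2 levels used a prior count of 2. The code was tested on simulated counts, where recovery of changes was required only in a run with far less spread than these libraries. Their common biological coefficient of variation (spread between replicates relative to the mean) was 1.09 in edgeR. That run therefore cannot show how well changes are found here.

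The members and lists were chosen with earlier results of these data known, so no list was tested as a set. Of 165 list entries, 5 had no matching symbol. Named list genes were the most abundant of each list, those with an unadjusted p under 0.05 and 5 fixed partners. Genes named because they were at 0 in every library, and others so marked, were chosen after their values were seen. Alternatives used DESeq2 1.42.0 and limma 3.58.1, other scalings and filters, a replicate block and fits without single libraries. No sequences of these genes were used here.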

Additional observations from a re-analysis of the deposited data

How the results depend on the processing

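Over 22 alternative settings, 0 members passed in any, and the smallest adjusted p of a member was 0.454. All rows called were 0 with all libraries in edgeR wherever low counts were filtered, and 2 with no filter on low counts. They were 12 with DESeq2, 140 with DESeq2 on all rows (added after the data were examined), and 0 to 2 with single libraries left out. Of 220 recomputed fold changes 9 changed sign, and 6 members kept theirs throughout. The exceptions were hspa8 with library totals alone (0.032), and hsp90aa1.1 with limma-voom (-0.036), with library weights (-0.42) and without both libraries numbered 1 (-0.75). Single libraries left out gave -0.40 to 0.92 for hsp90aa1.1, -1.14 to 0.056 for hsp90aa1.2 and -1.31 to 0.58 for hspb1, the positive values of the last pair coming without control replicate 2; the cause was not tested. The difference in summed share was -3.91 to -0.51 percentage points with single libraries left out, and -1.32 without both libraries numbered 2, a run added after the data were examined. As a share of Ensembl gene counts the difference was -2.56, and without mitochondrial, haemoglobin and ribosomal protein genes it was -2.77. Scaling moved the median log2 fold change of all rows between -0.15 (upper quartile) and -0.02 (library totals alone), and 8 to 9 members were negative under each scaling. With the replicate block 0 members and 0 rows passed. Deviations from the group means correlated at 0.13, 0.11 and 0.01 in same-numbered libraries and at -0.14 to 0.07 in differently numbered ones. The labels do not say that the numbers pair the samples, and the main fit did not pair them. Morpholino replicate 1, with 1629804 counts, limits the precision of scarce genes, since a count of 0 allows up to 1.84 CPM there.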
